A study of Beta vulgaris subsp. vulgaris with 30 samples.

Results

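A set of 96 genes, of 21587 in the count table of a sugar beet freezing experiment, was chosen for a higher level after 3 days of pretreatment and for a limited change in the frost that came next. Its genes were chosen by their CPM (reads of a gene per 1000000 reads counted in the library), with the 5 group medians as the measure and 1 CPM added to each. A gene belonged to the set when its highest group median was at least 10 CPM and its mean over the 30 libraries was under 2000 CPM. Its median after water and its median after ethanol both had to be at least 1.8 times that before pretreatment. The ratios of frozen to unfrozen median had to lie between 0.67 and 1.5 in both arms, and the ratio of ethanol to water median had to be at least 0.7. These measured values chose the genes, so the rise over pretreatment and the bounded response to freezing are described here and are not findings.

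Messenger RNA of sugar beet (Beta vulgaris) shoots was sequenced with Lasy-Seq, a multiplexed method that starts from poly(A) RNA, in 5 groups of 6 libraries. The groups were sampled before pretreatment, after 3 days in ethanol, after 3 days in water, after ethanol and then freezing, and after water and then freezing, with 2 h of freezing temperature in the labels of the frozen groups. The series text describes 7-day-old seedlings in pots standing in 80 mM ethanol and a night at -2.1 to -3.5 °C. The protocols of the single samples instead describe 14-day-old Arabidopsis, a pretreatment of 6 days with 20 mM ethanol, and -4.0 °C, while the genes counted lie on beet chromosomes of assembly EL10.2. The labels do not say that the libraries of a group came from separate plants or pots, so p-values measure the spread between libraries only. The pretreated seedlings were also 3 days older than those sampled before, and the hour of sampling is not given, so pretreatment cannot be told apart from age, nor freezing from the hour of day. Total counts ran from 3379082 (ethanol replicate 4) to 17868082 (frozen ethanol replicate 5), and TMM scaling factors, which correct for composition, had medians of 1.12 and 1.08 in the frozen ethanol and frozen water groups, 0.972 and 0.944 after ethanol and water, and 0.896 before.

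Below the freezing point ice forms in the spaces between plant cells and draws water out of them, and many plants answer cold by switching on protective genes within hours. Dilute ethanol taken up through the roots has been described as a pretreatment that raises the tolerance of plants to several stresses. A young shoot also expands its first leaves over the same days, with wide changes in gene activity that need no treatment. The identifiers of the count table come without gene names. By position, 79 of the 96 genes (82.3%) matched a RefSeq gene of EL10.2, of which 77 are protein coding and 2 are long non-coding, and 17 had no match. The matches carry locus numbers in place of symbols, and product names were not used here, so the genes are given by identifier, position and, where matched, locus number, with no role. The labelled tissue could not be checked against marker genes for the same reason.

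The joint level of the 96 genes differed by less than the spread between libraries among the 4 groups sampled after pretreatment. In each library, the median over the genes of log2(CPM + 1) was taken relative to the mean before pretreatment. This level averaged 0.01 ± 0.25 before pretreatment, 1.32 ± 0.18 after ethanol, 1.33 ± 0.22 after water, 1.32 ± 0.15 after ethanol and freezing, and 1.31 ± 0.30 after water and freezing (SD, n = 6 libraries each). The lowest of the 24 later libraries stood at 0.976, in the frozen water group, and the highest library sampled before stood at 0.322, so the groups did not overlap, which the rule fixes. The genes took up 1.27% ± 0.17 of all counts after ethanol, 1.28% ± 0.19 after water, 1.21% ± 0.12 after ethanol and freezing and 1.24% ± 0.27 after water and freezing, against 0.508% ± 0.093 before (SD, n = 6 each). Depth moved with the level in some groups, in that the deepest library was the lowest of its 6 before pretreatment, after ethanol and after ethanol and freezing, whereas the deepest water library was the second highest. The part of depth in the level was not tested. In whole shoots, more cells of a type and more RNA per cell cannot be told apart.

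**Figure D1:**
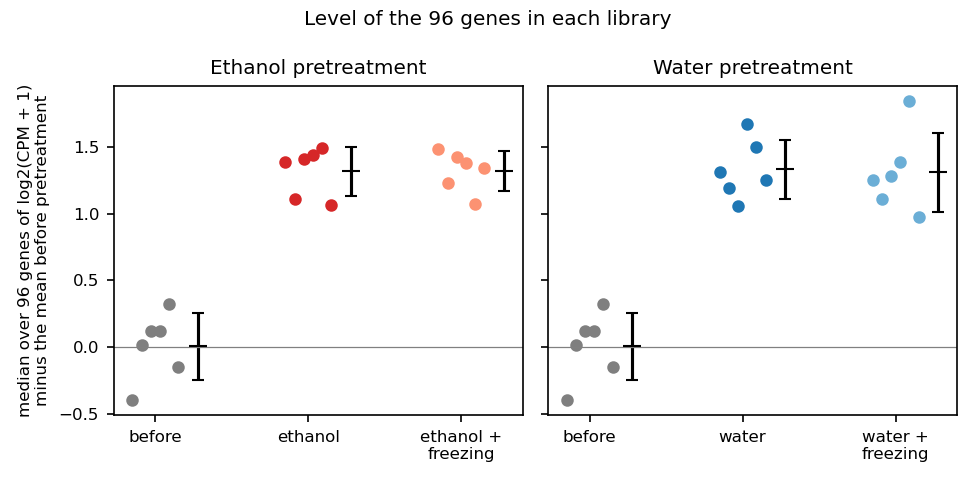
Level of the 96 genes in each library, as the median over the genes of log2(CPM + 1) minus the mean before pretreatment, by stage in the ethanol arm (left) and the water arm (right). Points are libraries and bars are the mean and SD of 6; the 6 libraries sampled before are drawn in both panels. The later groups average 1.31 to 1.33 and stand above all libraries sampled before.

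Of the 96 genes, all of which passed the filter on low counts, 58 were called higher after ethanol than before and 62 were called higher after water than before by edgeR (quasi-likelihood, p-values adjusted by Benjamini-Hochberg over 14128 genes). Over all genes tested, 1.72% were called higher after ethanol and 1.64% after water, and since the rule used both contrasts nothing is read from the excess. None of the 96 was called lower, against 2.05% and 1.46% of all genes. Both calls were made for 51 genes (1.1% of all genes tested), the ethanol call alone for 7, the water call alone for 11 and neither for 27. The rule, which works on medians, thus admitted genes that did not pass the adjusted threshold. Without adjustment, edgeR gave p under 0.05 for 91 of the 96 after ethanol and 90 after water, in contrasts that the rule used. The SD of log2(CPM + 1) within groups had a median of 0.49 over the 96 genes and 0.39 over the 6256 genes within the same level limits. All 6 ethanol libraries lay above all 6 libraries sampled before for 46 genes (1.96% of all genes tested), and all 6 water libraries did so for 47 (1.73%). The reverse order was seen in none of the 96, against 0.885% and 0.934% of all genes. For 25 genes all 24 later libraries stood above all 6 sampled before (0.439% of all genes tested). The median fitted change of the 96 genes was 1.18 on the log2 scale for ethanol over before and 1.23 for water over before, against -0.01 and -0.01 over all genes.

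The 10 genes with the highest mean CPM come first here, though CPM is not corrected for gene length and gives no order of levels between genes. Bevul.9G170700 (LOC104904353, chromosome 9, 48389241 to 48390645, minus strand) had a median of 1918 CPM after ethanol (lowest 1569, highest 2250) and 1684 after water (1335 to 2824), against 807 before (645 to 1225). Its median was 1430 CPM (1064 to 1732) after ethanol and freezing and 1666 (1272 to 2106) after water and freezing. The 6 libraries sampled before lay below all 18 libraries of the ethanol, water and frozen water groups, and the highest of them overlapped the frozen ethanol group. Bevul.7G211000 (LOC104900155, chromosome 7, 58734412 to 58735149, minus strand) had medians of 1078 CPM after ethanol (807 to 1367) and 1129 after water (946 to 1361), against 503 before (336 to 584). After freezing it stood at 1048 CPM in the ethanol arm (780 to 1198) and 902 in the water arm (745 to 1352), again with no library as low as those sampled before. Bevul.4G241200 (LOC104889944, chromosome 4, 64805600 to 64806209, plus strand) had medians of 494 CPM after ethanol (346 to 647) and 494 after water (387 to 704), against 165 before (121.2 to 174.8). In the frozen groups its medians were 539 CPM after ethanol (386 to 583) and 431 after water (292 to 687). For this gene the gap between the highest library before and the lowest later one was wide, and the 4 later groups overlapped throughout.

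Bevul.9G170800, which has no RefSeq match and lies next to Bevul.9G170700 on chromosome 9 (48397567 to 48399916, minus strand), varied more. It had a median of 837 CPM after ethanol (711 to 1280) and 594 after water (296 to 1091), against 206 before (99.99 to 278.9), and medians of 832 (285 to 1152) and 805 CPM (523 to 1264) after ethanol or water with freezing. All 24 later libraries were above those sampled before, by a small margin in the lowest frozen ethanol library. Bevul.4G070200 (chromosome 4, 13598419 to 13599083) had medians of 790 CPM after ethanol and 709 after water against 265 before. With freezing its medians were 651 CPM in the ethanol arm and 555 in the water arm. Bevul.7G211400 (chromosome 7, 58769774 to 58770202) had 424 CPM after ethanol and 509 after water against 194 before, and 468 and 399 CPM after ethanol or water with freezing. Bevul.7G209100, Bevul.1G071200, Bevul.7G210000 and Bevul.2G082700 complete the 10, with medians of 340 to 392 CPM after ethanol, 335 to 369 after water and at most 191 before. Bevul.7G209100 had its highest median after ethanol and freezing, at 473 CPM. Bevul.1G071200, Bevul.7G210000 and Bevul.2G082700 had theirs after water and freezing, at 521, 441 and 364 CPM.

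**Figure D2:**
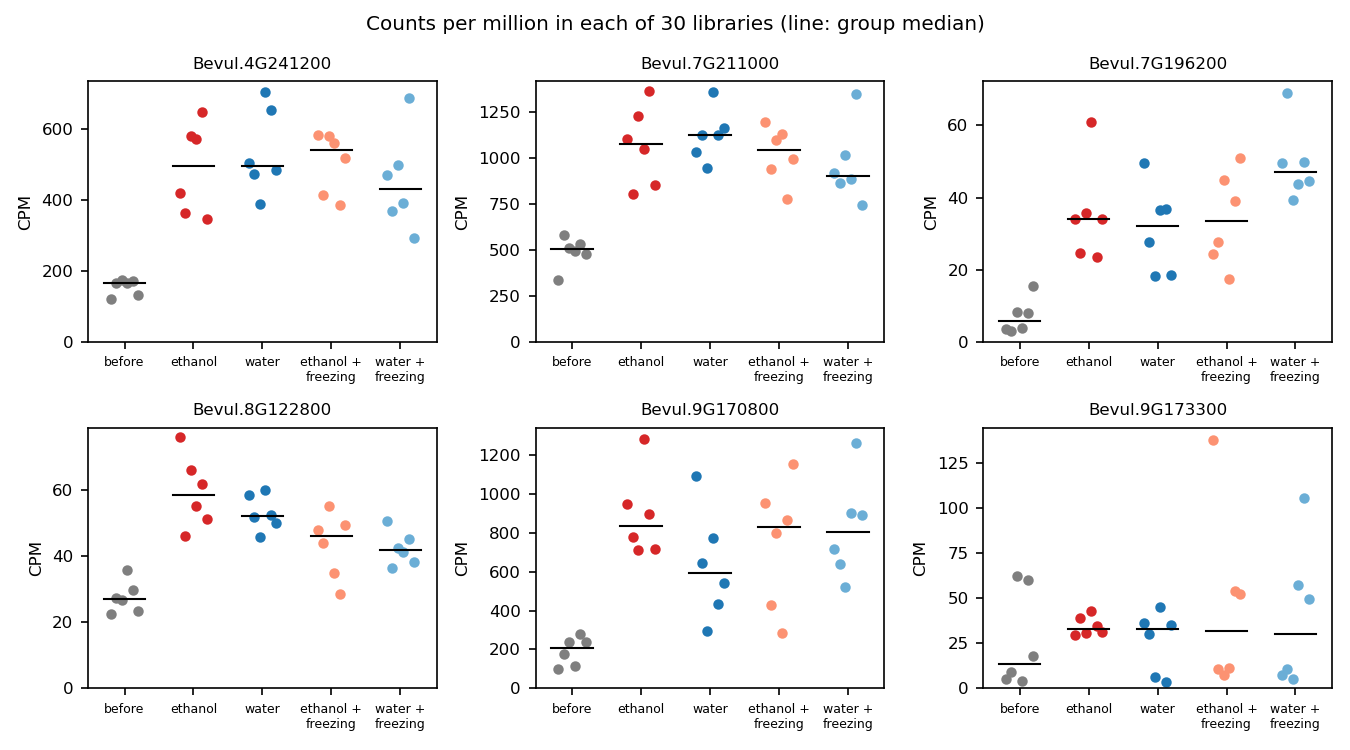
CPM of 6 of the genes in each of the 30 libraries, by group, with a line at the group median. In Bevul.4G241200 and Bevul.7G211000 all frozen libraries stand above those sampled before. Bevul.7G211000 and Bevul.8G122800 have lower medians after freezing than after pretreatment in both arms. Bevul.7G196200 has a median of 47.2 CPM after water and freezing, and the libraries of Bevul.9G173300 split into high and low ones in 4 groups.

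The 10 genes with the largest rises ranged widely in mean CPM (7.96 to 326) and in the SD of log2(CPM + 1) within groups (0.33 to 1.65). Bevul.8G061600 (LOC104884696, chromosome 8, 12716636 to 12717844) had the largest ratios, 9.90 for ethanol over before and 6.14 for water over before, on medians of 12.6 CPM (0 to 17.8) and 7.44 CPM (0 to 15.5) against 0.376 CPM (0 to 17.6). Each of these 3 groups held libraries near 0 and libraries above 15 CPM, so the groups overlapped over their whole range. The fitted change was 1.47 ± 1.07 for ethanol and 1.10 ± 1.06 for water on the log2 scale (SE). Bevul.7G059700, a long non-coding locus in RefSeq (LOC104908934, chromosome 7, 12148957 to 12151439), and Bevul.9G221200 (LOC104904826, chromosome 9, 53918177 to 53918858) likewise had high ratios, with overlap between water and before in both. Bevul.7G059700 had medians of 8.27 CPM after ethanol (2.37 to 14.4) and 9.48 CPM after water (6.83 to 12.5), against 0.977 CPM before (0.127 to 11.5).

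In some of the 10 genes the rise held in every later library. Bevul.7G196200 (LOC104900015, chromosome 7, 57179352 to 57180928, minus strand) had medians of 34.1 CPM after ethanol (23.6 to 61.0) and 32.2 after water (18.4 to 49.6), against 5.90 before (3.00 to 15.4). Its median was 33.4 CPM (17.5 to 51.0) after ethanol and freezing and 47.2 (39.2 to 68.9) after water and freezing, so all later libraries stood above those sampled before. The fitted changes were 2.23 ± 0.33 for ethanol over before and 2.09 ± 0.33 for water over before (log2, SE). Bevul.7G194300 (LOC104899992, chromosome 7, 56880470 to 56883339), at 49.6 and 55.7 CPM after ethanol and water against 15.5 before, was at 66.5 CPM after ethanol and freezing and 81.0 CPM after water and freezing. It is thus one of the genes that went on to higher medians in the frost while staying inside the window of the rule. Bevul.9G224400, Bevul.5G222600, Bevul.3G029800, Bevul.7G012800 and Bevul.3G191800 had ratios of 3.15 to 4.37 for ethanol over before and 2.98 to 4.22 for water over before.

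Freezing left the genes above their starting level, as the limits of the rule imply for the medians, with lower values than after pretreatment in some. The mean of the frozen libraries was above the mean before pretreatment for 96 of 96 genes in both arms, and it was at least 1.5 times that mean for 95 genes in the ethanol arm and 91 in the water arm. By edgeR, 8 genes were called lower after ethanol and freezing than after ethanol alone and none higher, where 6.53% and 5.78% of all genes tested were. After water and freezing, 7 were called lower than after water alone and none higher, where 6.09% and 5.02% of all genes were. The window of the rule limits both counts, and nothing is read from them. Single libraries moved these counts: the 8 in the ethanol arm became 5 without ethanol replicate 1 or frozen replicate 1 or 4, 4 without ethanol replicate 3 or frozen replicate 5, and 3 without ethanol replicate 5 or frozen replicate 2 or 6. The 7 in the water arm became 2 without water replicate 4 or frozen replicate 2, 3 without frozen replicate 3 or 6, 4 without water replicate 5 and 12 without frozen replicate 5. The name given to the set, genes unmoved by freezing, refers to medians within the window and does not state that no single gene changed. Fitted freezing changes were below 0 in both arms for 47 genes, above 0 in both for 23 and of opposite sign for 26.

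The sign of the common freezing change depended on the scaling of the libraries. With TMM factors the median fitted change of the 96 genes was -0.13 in the ethanol arm and -0.14 in the water arm (log2), and with plain column totals it was 0.05 in both. The median of all genes tested moved in the same way, at 0.09 and 0.08 with TMM and 0.26 and 0.26 with column totals. Relative to that median, the 96 genes stood at -0.22 in both arms under either scaling. The rule bounds the freezing ratios and chose genes with high medians after pretreatment, so nothing is read from this difference. With column totals, edgeR called 3 genes lower in the ethanol arm, Bevul.8G122800, Bevul.2G092100 and Bevul.9G170700, and none lower and 1 higher, Bevul.7G194300, in the water arm.

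**Figure D3:**
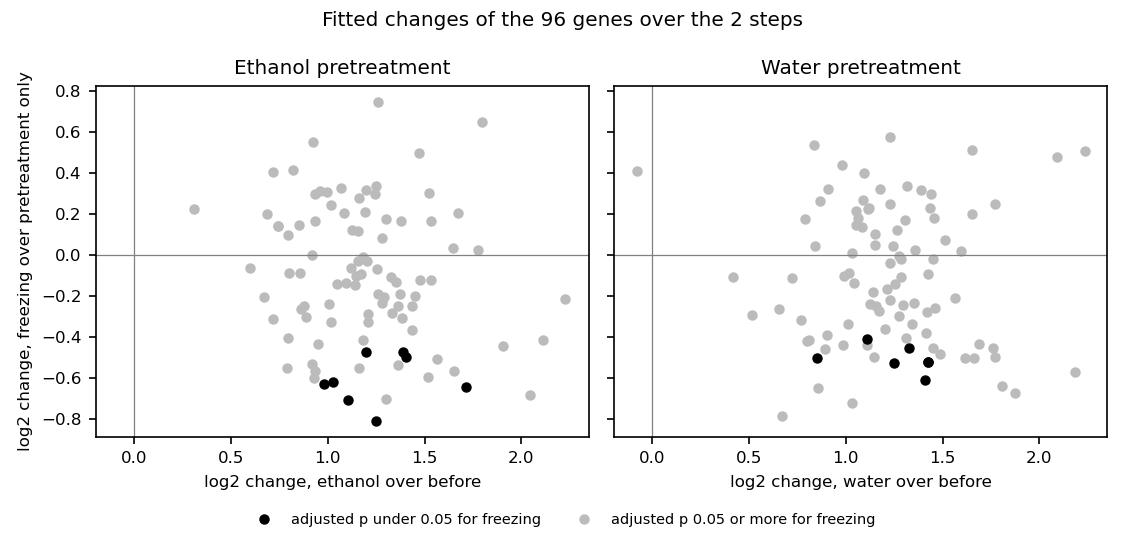
Fitted log2 change of each of the 96 genes over pretreatment (x axis, pretreated over before) and over freezing (y axis, frozen over unfrozen) in the ethanol arm (left) and the water arm (right), TMM scaling. Black points are the 8 and 7 genes called by edgeR for freezing, all below 0. Both positions are bounded by the rule, through medians and not through these fitted values.

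The genes called lower after freezing differed in length and position. Bevul.8G122800 (LOC104883682, chromosome 8, 44901036 to 44906992, minus strand) had the lowest spread of the 96, with a within-group SD of 0.23 on the log2 scale. It had a median of 46.0 CPM after ethanol and freezing (28.6 to 55.2) against 58.6 after ethanol (46.2 to 76.2), and 41.9 after water and freezing (36.5 to 50.8) against 52.3 after water (45.9 to 59.97). Before pretreatment it was at 27.1 CPM (22.4 to 35.9). The fitted freezing changes were -0.63 ± 0.15 and -0.50 ± 0.15 (log2, SE), so the gene stood between its pretreated and its starting level, and frozen and unfrozen libraries overlapped. Bevul.2G092100 (LOC104883994, chromosome 2, 26123706 to 26129380) was at 32.1 CPM after ethanol and freezing (24.3 to 43.1) against 43.8 after ethanol (37.0 to 58.0), with a change of -0.71 ± 0.19, and at 37.0 against 44.6 CPM in the water arm. These are long gene models of 5957 and 5675 bp.

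The others included short genes that lie in runs. Bevul.4G070200 and Bevul.5G013500 were called in both arms together with Bevul.8G122800, and Bevul.5G013300, Bevul.5G013400, Bevul.7G211000 and Bevul.7G211200 in the water arm. Bevul.5G013300 (LOC104908208, chromosome 5, 1764976 to 1765287) had a median of 111.8 CPM after water and freezing (68.5 to 151.1) against 134.3 after water (120.6 to 179.6), and a change of -0.61 ± 0.15. In the ethanol arm the calls went further to Bevul.9G170700, Bevul.3G191800, Bevul.1G162000 and Bevul.9G029100, with changes of -0.62, -0.64, -0.50 and -0.81. Bevul.3G191800 (chromosome 3, 49792437 to 49793578) was the 1 gene whose 6 frozen ethanol libraries (251 to 350 CPM) all lay below its 6 ethanol libraries (360 to 623), where 2.92% of all genes did so. The 1 gene with all 6 above was Bevul.9G099600 (5.55% of all genes). In the water arm no gene had all frozen libraries beyond all unfrozen ones, where 4.28% of all genes lay above and 2.23% below. The 12 genes called in either arm were named after their values were seen.

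No difference between ethanol and water was called for these genes, either before or after freezing. By edgeR, 0 of the 96 genes differed between ethanol and water, where 1 gene of all tested did (0.00708%, lower), but the rule sets a lower limit on that ratio. The contrast of the 2 frozen groups has no limit of its own, although the other ratios bound it in part. There too 0 of 96 genes were called, against 0.0212% higher and 0.0849% lower of all genes tested, and DESeq2 also called 0. Without adjustment, 6 genes had p under 0.05, and the lowest adjusted p by edgeR was 0.818. No gene had all 6 frozen ethanol libraries beyond all 6 frozen water libraries, where 0.219% of all genes lay above and 0.142% below. Fitted differences ran from -1.27 to 0.74 with a median of 0.01 (log2), and the SE of a gene's difference had a median of 0.27 (0.12 to 1.02). Differences of the size of that error were not detectable. Larger ones could also go uncalled, as did the fitted -1.27, so 0 calls do not exclude differences well above the SE. The change with freezing in the ethanol arm minus that in the water arm was called for 0 of the 96 genes and for 0% of all genes in either direction, with 2 of the 96 at an unadjusted p under 0.05, and DESeq2 called 0 of the 96.

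The 6 genes nearest to a difference between the frozen groups ran in both directions. Bevul.3G055100 (chromosome 3, 6691823 to 6692332) had a median of 18.1 CPM after ethanol and freezing (11.5 to 22.9) against 30.4 after water and freezing (16.7 to 43.3), a log2 difference of -0.81 ± 0.27 (SE, edgeR adjusted p = 0.818). Bevul.7G012800 (chromosome 7, 1836786 to 1838474) had 9.18 CPM (3.43 to 18.1) against 22.1 (4.15 to 43.6), a difference of -1.27 ± 0.44 (edgeR adjusted p = 0.849). Both ranges overlapped. Bevul.7G172700 was also lower, by a fitted -0.90, while Bevul.6G056400, Bevul.8G102000 and Bevul.1G209800 were higher by 0.69, 0.69 and 0.49, none of them past the threshold after adjustment.

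The 96 genes were spread over all 9 chromosomes, with 18 of them in 7 runs in which members lie at most 100 kb apart. Of these 18, 14 were called higher after both ethanol and water, as were 51 of the 96 and 1.1% of all genes tested, and 13 have a gene span of at most 1000 bp, as do 30 of the 96. Nothing is read from either count. The span is that of the gene model in the table, from start to end with introns. One run is that of Bevul.5G013300, Bevul.5G013400 and Bevul.5G013500, 3 adjacent genes on chromosome 5 between 1764976 and 1778550, the first on the minus strand and the other two on the plus strand. After ethanol and after water they had medians of 124.9 and 134.3, 292.9 and 306.3, and 314.9 and 332.3 CPM, against 50.82, 122.4 and 140.6 before. Their ratios were 2.23 to 2.43 for ethanol over before and 2.35 to 2.61 for water over before, so the 3 genes had similar ratios at different counts.

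On chromosome 7, Bevul.7G210000, Bevul.7G211000, Bevul.7G211200 and Bevul.7G211400 lie between 58660730 and 58770202 among 15 genes. On chromosome 4, Bevul.4G070000, Bevul.4G070200 and Bevul.4G070600 lie between 13562761 and 13663040, and Bevul.4G241200 and Bevul.4G241400 between 64805600 and 64815502. On chromosome 9 lie 3 runs of a pair of genes each, Bevul.9G170700 with Bevul.9G170800, Bevul.9G193700 with Bevul.9G194200 (50708473 to 50748621) and Bevul.9G229400 with Bevul.9G229500 (54746794 to 54749575). Within the 7 runs stand 20 other genes, of which 13 had a mean under 1 CPM. The 2 of them with a mean of at least 100 CPM were Bevul.7G210100 and Bevul.7G211300. Bevul.7G211300 had medians of 302 CPM after ethanol and 341 after water against 203 before, below the rise the rule asks for, and Bevul.7G210100 had 378 and 388 against 318. Most of the genes between the members were thus close to silent, but the share of all genes under 1 CPM was not counted. Low values were common, with no read for 2180 of 21587 genes and a median mean of 2.79 CPM over those with a read. Nothing is therefore read from the 13.

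Short gene models were common in the set. The median span was 1619 bp for the 96 genes, 1859 bp for the genes that met the other limits but lay outside the freezing window, and 4342 bp for the 6256 genes within the same level limits. Spans of at most 1000 bp made up 31.2% of the 96 genes (30), 21.4% of those outside the window (25) and 10.1% of the 6256 (632). Spans of 312 bp occurred in 3 members (Bevul.7G210000, Bevul.5G013300 and Bevul.5G013500), of 411 bp in another 3 (Bevul.4G241400, Bevul.4G070600 and Bevul.6G033000) and of 510 bp in 2 (Bevul.5G013400 and Bevul.3G055100). Reads that fit several near-identical genes could be split or lost in counting, and whether these genes share sequence was not examined, so their counts are uncertain. The sources used here do not say whether strand was used in counting, and 1 member, Bevul.7G042800, overlaps a neighbour. By chromosome, members made up 2.13% of the genes within the level limits on chromosome 9 (22 genes), 1.96% each on chromosomes 5 (13) and 7 (14), and 1.02% to 1.58% on the other 6.

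The way libraries of one group differed from each other set apart a first body of genes. After removing group means, the deviations of Bevul.4G241200 over the 30 libraries were compared with those of 7764 genes averaging at least 5 CPM, a comparison gene chosen after its values were seen. A Pearson r of at least 0.6 was reached by 30 of the 95 other members (31.6%), against 154 of all genes compared (1.98%). Of the 20 genes most like it, 15 were members, on 6 chromosomes in all, led by Bevul.4G241400 (r = 0.917), Bevul.5G013400 (0.907), Bevul.4G205400 (0.907), Bevul.7G211000 (0.876) and Bevul.9G017900 (0.874). The 31 genes lie on 8 chromosomes and include 19 with a span of at most 1000 bp. Of these 31, 29 were called higher after ethanol and 30 after water, against 58 and 62 of the 96 and 1.72% and 1.64% of all genes tested. Of the 12 genes called lower after freezing in either arm, 8 were among the 31. Over all genes tested, 6.53% were called lower in the ethanol arm and 6.09% in the water arm. The rule used these contrasts, so nothing is read from the counts. The libraries share depth and composition, so this likeness is a description of them.

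**Figure D4:**
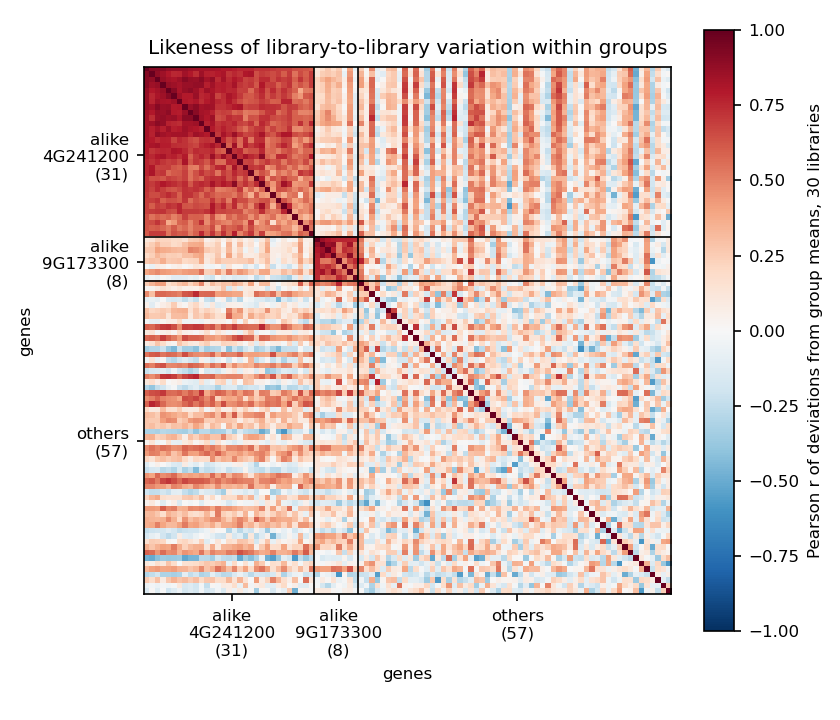
Pearson r between each pair of the 96 genes, from deviations of log2(CPM + 1) from the group means over 30 libraries, with both axes in the same gene order. The block of 31 genes like Bevul.4G241200 and the block of 8 like Bevul.9G173300 were formed by r of at least 0.6 to that gene, which favours high r inside. The other 57 genes stand in order of mean CPM and not by likeness, so the picture cannot tell whether they hold further blocks. The 2 comparison genes were chosen after their values were seen.

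A second, smaller body of genes lay at the end of chromosome 9. Bevul.9G173300 (LOC104904381, chromosome 9, 48650535 to 48651949) met the rule with ratios of 2.34 for ethanol over before and 2.33 for water over before, yet its fitted changes were 0.31 ± 0.68 and -0.08 ± 0.68 (log2, SE). It had a median of 32.9 CPM after ethanol (29.6 to 43.2) and 32.8 after water (3.71 to 45.1), against 13.5 before (4.06 to 62.6). Its libraries fell into high and low ones. Before pretreatment, replicates 3 and 5 stood at 62.6 and 60.2 CPM and the other 4 at 4.06 to 18.2, and after water, replicates 3 and 5 stood at 6.49 and 3.71 CPM and the others at 30.3 to 45.1. In the frozen ethanol group replicates 2 to 4 stood at 7.54 to 11.5 CPM and the others at 52.4 to 138, and in the frozen water group replicates 1 to 3 stood at 5.11 to 11.0 CPM and the others at 49.8 to 105.99. In both frozen groups the median lay in the gap between the high and the low libraries.

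Other genes of that region had the same libraries high and low. The 20 genes most like Bevul.9G173300 all lie on chromosome 9 beyond 47 Mb, and 1 of them is a member. Of the other 95 members, 7 had r of at least 0.6 to it (7.37%), against 70 of all genes compared (0.902%). Beyond 47 Mb lie 12 members, of which 3 were called higher after ethanol and 4 after water. The calls were 58 and 62 of the 96, and 1.72% and 1.64% of all genes tested. Replicates 3 and 5 were the lowest after water in 8 of the 11 members there other than Bevul.9G173300 (72.7%), in 24.0% of 434 other genes there, in 7.81% of 743 genes on the rest of chromosome 9 and in 5.92% of 6575 genes on other chromosomes. The same replicate numbers were the highest before pretreatment in 8 of the 11 (72.7%), 21.2%, 12.5% and 8.91%. Replicates 2 to 4 were the lowest after ethanol and freezing in 8 of the 11, 17.3%, 4.31% and 3.00%, and replicates 1 to 3 after water and freezing in 7 of the 11 (63.6%), 12.7%, 4.58% and 3.71%. Bevul.9G221200 was the most variable after Bevul.9G173300 in this region, with 4.40 to 249 CPM in the frozen ethanol group and 0.776 to 32.2 before. These orders were taken from Bevul.9G173300 after its values were seen. The rule used medians of the same libraries and can favour genes with these orders. Nothing is therefore read from the higher shares among members. The source of this split between libraries was not tested.

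**Figure D5:**
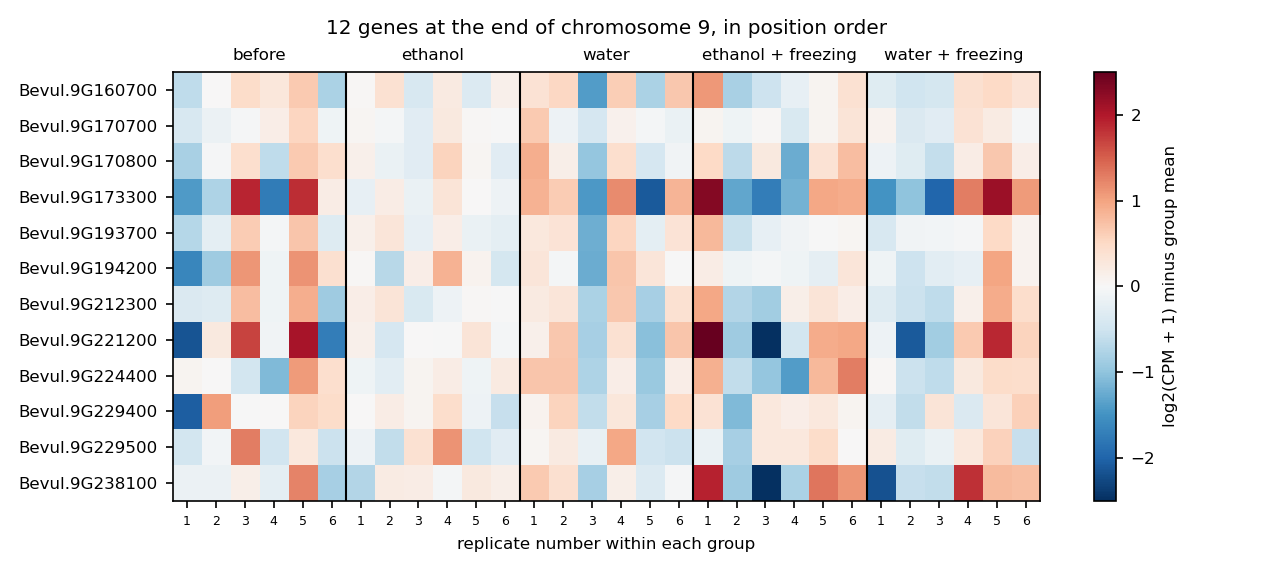
Deviation of log2(CPM + 1) from the group mean for the 12 members on chromosome 9 beyond 47 Mb (rows, in position order) in each library (columns, by group and replicate number), with red above and blue below the group mean. The same libraries are high or low in most rows, most widely in Bevul.9G173300, Bevul.9G221200 and Bevul.9G238100, and the ethanol group shows little of it.

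The limits of the rule cut through a continuous range of values. On the ratio of water to before, Bevul.2G082700 stood just inside at 1.81 and Bevul.9G182200 just outside, a little lower, and 43 genes failed this limit alone. On the ratio of ethanol to before, Bevul.9G229500 was inside at 1.802 and Bevul.7G196600 outside at 1.795, with 28 genes failing it alone. The lower freezing limit had Bevul.9G029100 inside at 0.671 and Bevul.9G002000 outside at 0.658 in the ethanol arm, and Bevul.6G056400 inside at 0.689 and Bevul.9G180400 outside at 0.668 in the water arm. The upper limit had Bevul.1G197800 inside at 1.46 and Bevul.9G123500 outside at 1.55 in the ethanol arm, and Bevul.7G026400 inside at 1.47 and Bevul.3G087600 outside at 1.51 in the water arm. Among genes kept out by the limit on level alone, the nearest was Bevul.9G221400, with a highest median of 9.88 CPM. Of 213 genes that met the rising limits, the level limits and the ethanol to water limit, 43 were at or above 1.5 after freezing in both arms, 18 were at or below 0.67 in both, and 56 were outside in another way.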

How the data were processed

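The deposited table holds the authors' whole read counts per gene for 30 libraries, used as deposited. The authors' other deposited table is a signal, in which each count is divided by the size factor of its library (relative spread at most 1.18e-09), and served only for that check. Reads were handled with bcl2fastq, Trimmomatic and HISAT2, counted by featureCounts and scaled in DESeq2, per the submitters' processing notes, whose stated build TAIR10 goes against the beet chromosomes in the file headers. Their versions are not given in the sources used here. No molecular identifiers are named in the labels, so counts are reads. Of 21587 genes, 2180 had no read.

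Members were found on CPM from column totals. Tests used R 4.3.3 and edgeR 4.0.16 on the counts of all 30 libraries (TMM factors, filterByExpr by group, 5 group means, no covariate, quasi-likelihood, two-sided, Benjamini-Hochberg over 14128 genes, threshold 0.05). Standard errors were taken as the ratio of log2 fold change to root F. The fit was tested on simulated data. Other settings were the replicate number as a block, relative log expression factors, all genes without the low-count filter, the compared groups only, a freezing window of 0.8 to 1.25, DESeq2 1.42.0, leaving out each library, and other limits of the rule. Scaling by column totals alone was added after the data were seen. Likeness and positions used Python 3.11.15 on log2(CPM + 1). RefSeq genes of EL10.2 were matched by position, each gene covering at least 0.5 of the other.

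The members and lists were chosen with earlier results of these data known. Named genes are the 10 with the highest mean CPM, the 10 with the largest smaller rise, those next to a limit of the rule, those in runs and the 5 with the lowest and the 5 with the highest spread within groups. Bevul.7G081000 and Bevul.8G014700, named for high spread, are given only here. Bevul.7G081000 ran from 1.38 to 61.5 CPM before pretreatment and from 1.26 to 155.8 after ethanol and freezing. Bevul.8G014700 ran from 1.48 to 22.5 CPM before pretreatment and from 10.8 to 89.3 after water. Genes named for a call in freezing, for a difference between the frozen groups or for likeness were chosen after their values were seen. Planned product lists and promoter motifs were not analysed here.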

Additional observations from a re-analysis of the deposited data

Results flagged for a closer look

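Over the 36 genes named by the rule and the joint level of the 96 genes, each group of 6 libraries was examined for a library whose gap to the nearest other exceeded Dixon's limit as a share of the range of its group. This held in 14 of 185 groups examined. The limit is set for about 1 in 20 among independent, normally distributed values. The CPM of these genes are neither, and the genes include those with the highest spread, so no excess is read from the 14. Values are in CPM.

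Before pretreatment, Bevul.3G029800 stood at 19.1 in replicate 5 against 7.36 to 8.83 in the others, and Bevul.4G070000 at 72.7 in the same library against 11.9 to 27.4. Bevul.8G061600 stood at 17.6 in replicate 6 before pretreatment against 0 to 0.71, and Bevul.9G229500 at 16.4 in replicate 3 against 3.93 to 7.56. Each of these 4 is a high value in the group that the rule asks to be low.

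After ethanol, Bevul.7G196200 stood at 61.0 in replicate 4, the shallowest library, against 23.6 to 35.8. After water, Bevul.7G012800 stood at 3.05 in replicate 4 against 14.3 to 20.8. After ethanol and freezing, replicate 1 was high for Bevul.9G173300 (138 against 7.54 to 54.2), Bevul.9G193700 (121.2 against 46.3 to 71.6) and Bevul.9G221200 (249 against 4.40 to 86.0). In that group Bevul.7G211200 stood at 174 in replicate 5 against 241 to 261, and Bevul.9G229400 at 8.46 in replicate 2 against 20.3 to 25.1. After water and freezing, replicate 5 was high for Bevul.5G013500 (413 against 177 to 263) and Bevul.9G194200 (76.6 against 26.5 to 40.5), and replicate 2 for Bevul.7G196200 (68.9 against 39.2 to 49.99).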

How the results depend on the processing

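The rule found 74 genes on TMM-scaled CPM (62 shared with the 96), 76 on DESeq2 size factors (63 shared), 99 on group means (71 shared) and more with 0.1 CPM added (93 shared). A minimum rise of 1.5 gave 205 genes and one of 2.5 gave 33, a narrower freezing window gave 40 and a level minimum of 5 CPM gave 152. Without 1 library the rule found at least 87 genes, with at least 76 shared, and 49 of the 96 were found in all 30 such settings. Leaving out 1 library gave 54 to 63 calls for ethanol over before, 56 to 64 for water over before, 3 to 8 lower calls for freezing in the ethanol arm and 2 to 12 in the water arm. The lower calls in the ethanol arm were 5 with no low-count filter and 3 with column totals, and in the water arm column totals gave 0 lower and 1 higher. With DESeq2 the numbers of calls were 71, 71, 10 and 10. Of the calls made, 51 of 58 (ethanol) and 51 of 62 (water) over before, and 3 of 8 and 0 of 7 for freezing, held in every setting run, and no called gene changed sign in any. No gene was called between the frozen groups, between ethanol and water or for the difference of freezing responses in any setting run. Low levels may limit the genes near 10 CPM, which was not tested. Bevul.8G061600 had an SE of 1.07 on the log2 scale for ethanol over before. Its ethanol libraries ran from 0 to 17.8 CPM, and its SD of log2(CPM + 1) within groups was 1.65. Bevul.9G019600, with a similar mean CPM (9.38 against 9.28), had an SD of 0.45.

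With the replicate number as a block, 60 genes were called higher after ethanol and 61 after water, with 8 lower calls for freezing in each arm. Deviations of libraries with the same number in different groups correlated at -0.038 to 0.054 over 60 pairs, and 8 of 30 libraries correlated best with their own number. The labels give such libraries no link other than the number. Whether they share a pot or a batch cannot be told from these values.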
